A study of Homo sapiens with 4 samples.

Results

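The myosin genes are the set of genes that encode the actin-based motor chains and their light chains. They were taken from the deposited gene table as every symbol made of MYO, MYH or MYL, a number and the usual letter. No measured value entered that rule, but the family was chosen with earlier results of these data known. The rule found 52 of 28278 gene symbols, of which 15 were conventional heavy chains (MYH), 25 were unconventional myosins (MYO) and 12 were light chains (MYL). Of the MYH symbols, *MYH16* is annotated as a pseudogene. Polyadenylated RNA was sequenced from HepG2, a line of human hepatocellular carcinoma cells, with 2 libraries per group. The control group was a stable population infected with lentivirus carrying Cas9 and a control single guide RNA, and the other group, labelled sgUSP22, was a stable population infected with lentivirus carrying Cas9 and 1 guide RNA against *USP22*, a deubiquitinating enzyme of the SAGA transcription complex. Both populations were exposed to the kinase inhibitor Sorafenib for 24 hours, so no library without the drug enters the comparison. The comparison asks how the myosin transcripts differed between the 2 populations under the drug.

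Myosins hydrolyse ATP to pull on actin filaments. Nonmuscle myosin II, built from paired heavy chains with essential and regulatory light chains, assembles into short bipolar filaments that contract actin bundles and the cortex, and phosphorylation of its regulatory light chain switches it on. Unconventional myosins do not form such filaments: class I myosins link membranes to actin, class V and VI myosins carry vesicles, and class X myosin moves along filopodia. In liver cells, myosin II contracts the bile canaliculus and class V myosin delivers transporters to the canalicular membrane.

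*USP22*, the gene the guide targets, was read first, and the control libraries gave 16450 and 16537 counts of it against 20279 and 20368 in those labelled sgUSP22. The sgUSP22 libraries were the higher ones, with a log2 fold change of 0.22 (SE 0.034, edgeR quasi-likelihood test with Benjamini-Hochberg adjustment, adjusted p = 0.000394). The transcript was thus not lower where the label names the knockout, and every direction below follows the label. The paper reports the knockout from Western blots of the protein, which these RNA counts do not measure. The 4 libraries held between 62030307 and 64728272 counts, and a count of 0 allows up to 3 counts, which is 0.0457 to 0.0492 CPM (counts scaled to the TMM-normalised library size, a floor that covers counting error only). Of 18 hepatocyte marker genes, 9 were listed at 0 in all 4 libraries, *ALB*, *APOA1*, *APOB* and *TTR* among them, and the summed level of the 18 genes was 0.443 and 0.561 CPM in control and 0.913 and 0.480 CPM in sgUSP22 libraries, so the defining markers of the labelled tissue were at or near 0 in these counts. The labels do not say that the 2 libraries of a group came from separate cultures, so each p-value measures the spread between these libraries, which may be technical.

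Of the 52 myosin genes, 30 passed the filter on low counts and were tested, and 22 did not, 17 of these being at 0 in every library. A gene was called when its adjusted p was below 0.05 and its fold change was at least 1.5. By that rule 5 myosin genes rose in the sgUSP22 libraries (*MYO1G*, *MYH14*, *MYO16*, *MYO15B* and *MYO5B*), or 16.7% of those tested, beside 8.88% of all 15150 tested genes. The 4 that fell were *MYO7B*, *MYO10*, *MYL5* and *MYH3*, or 13.3%, beside 7.25% of all tested genes. In either direction these 9 were 30% of the tested myosin genes, beside 16.1% of all tested genes. *MYH14* is counted here, though it passed the filter on low counts only through the sgUSP22 libraries, which fixed its direction before the test. DESeq2 called 4 of them higher and 3 lower, beside 7.14% and 5.59% of the genes it gave an adjusted p, and edgeR after a correction for GC content and transcript length called 4 higher and 4 lower, beside 7.97% and 6.59%. By adjusted p alone 21 of the 30 differed (70%), 9 higher and 12 lower, beside 52.5% of all tested genes (26.8% higher and 25.8% lower). The 2 groups did not overlap in 25 of the 30 (83.3%), 11 higher and 14 lower, beside 75.9% of all tested genes (38.3% higher and 37.6% lower). The median log2 fold change of the 30 was -0.075, and that of all tested genes was 0.001. With library size alone these medians were -0.022 and 0.053, and after the GC and length correction they were -0.142 and -0.005. The myosin genes together took less of the transcriptome in the sgUSP22 libraries, with a summed level of 4929.8 and 5000.1 CPM in control and 4190.6 and 4124.4 CPM in sgUSP22 libraries. This sum is weighted towards a few abundant genes. The largest differences in mean CPM were those of *MYH9* (1607.9 to 1072.8), *MYO10* (500.2 to 261.6) and, in the other direction, *MYO1G* (14 to 222.5). In bulk RNA, fewer cells expressing a gene and less RNA per cell cannot be told apart.

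**Figure D1:**
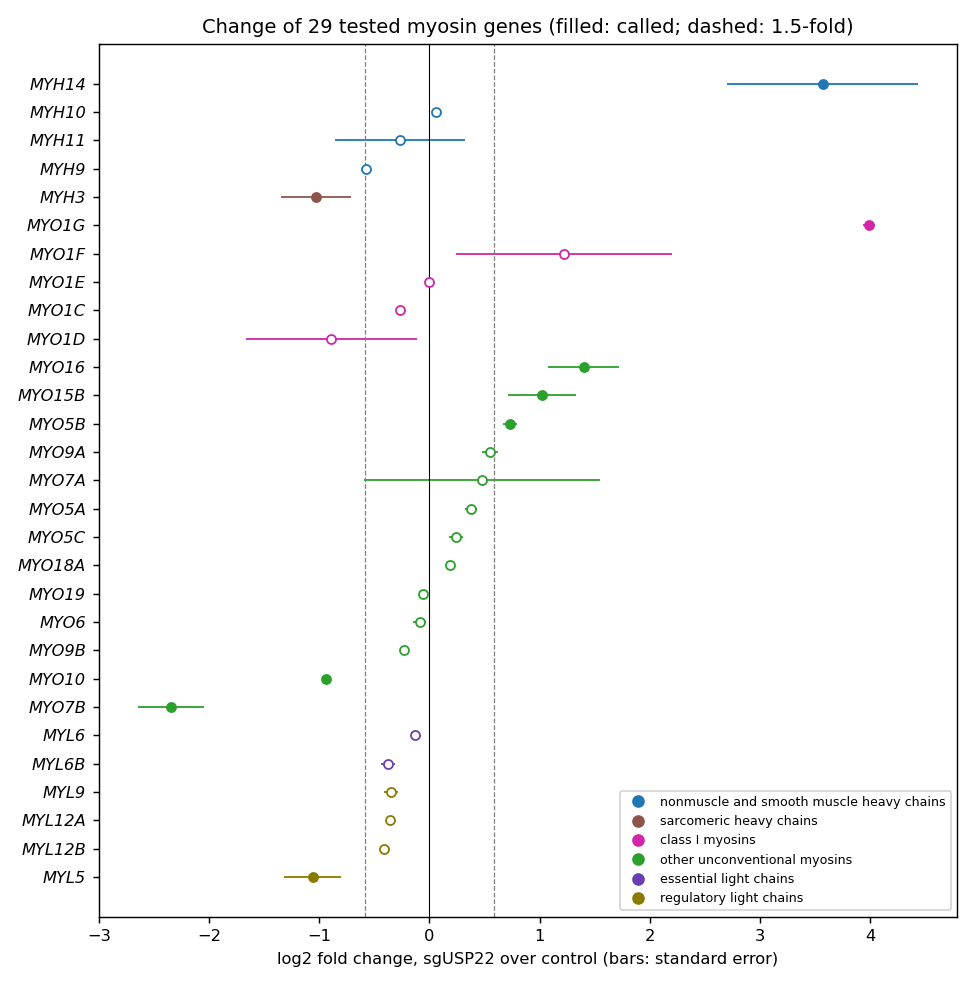
Log2 fold change of sgUSP22 over control (x axis) with its standard error for 29 of the 30 tested myosin genes, grouped by class, with filled points for called genes and dashed lines at 1.5-fold. *MYO1G*, at 3.99, stands furthest to the right and *MYO7B*, at -2.35, furthest to the left, and all 6 tested light chains lie below 0, of which *MYL6* turned to 0.06 after the GC and length correction.

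*MYO1G* encodes a class I myosin that is best known from lymphocytes, where it sits at the plasma membrane and carries a minor histocompatibility antigen. It lies on the minus strand of chromosome 7 at 44962662 to 44979088 (hg38), and it was the most strongly changed myosin gene. Counts were 897 and 828 in control against 14644 and 14340 in sgUSP22 libraries. Every sgUSP22 library was therefore far above every control library, and replicates of a group lay close together. The level went from 14 ± 1.02 CPM to 222.5 ± 0.503 CPM (SD, n = 2 each), a 15.9-fold rise with a log2 fold change of 3.99 (SE 0.053, edgeR quasi-likelihood test, adjusted p = 4.43e-11). By p-value it ranked 4 among all tested genes, and by fold change it ranked 5 among the 1010 genes called higher whose mean level was 1 log2 CPM or more and 48 among all 1345 genes called higher. Leaving out any 1 library gave values from 3.92 to 4.07.

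The sequence just upstream of *MYO1G* is shown because this gene carried the largest difference, with those of *MYO10* and *MYH9*, the abundant myosin genes with the largest decreases, for comparison. They are RefSeq promoter windows on GRCh38.p14, written 5′ to 3′ on the gene's strand and limited to the bases before the first annotated exon: 177 bases for *MYO1G* (chr7:44979089-44979265), 250 bases for *MYO10* (chr5:16936289-16936538) and 207 bases for *MYH9* (chr22:36388011-36388217), all from the minus strand. Capitals mark matches on either strand to 7 motifs searched without regard to each other's overlap, namely TATAAA for the TATA box, GGGCGG for the GC box, the CCAAT box by its letters, CACGTG for the E-box, TGANTCA for the AP-1 site, GGAATG for the TEAD site and the CArG box.
MYO1G: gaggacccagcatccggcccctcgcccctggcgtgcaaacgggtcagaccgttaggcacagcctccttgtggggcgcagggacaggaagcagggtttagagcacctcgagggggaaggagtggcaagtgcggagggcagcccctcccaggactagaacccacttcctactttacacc
MYO10: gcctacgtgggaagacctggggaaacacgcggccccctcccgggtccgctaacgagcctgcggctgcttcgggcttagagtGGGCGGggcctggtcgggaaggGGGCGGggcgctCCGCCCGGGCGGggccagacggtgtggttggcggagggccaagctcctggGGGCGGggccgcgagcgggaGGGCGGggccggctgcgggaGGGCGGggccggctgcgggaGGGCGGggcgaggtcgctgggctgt
MYH9: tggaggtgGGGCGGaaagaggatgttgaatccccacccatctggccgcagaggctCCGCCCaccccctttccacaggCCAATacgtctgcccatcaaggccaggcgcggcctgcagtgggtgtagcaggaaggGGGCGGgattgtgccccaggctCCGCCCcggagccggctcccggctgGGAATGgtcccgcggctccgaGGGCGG

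The *MYO1G* stretch held none of the 7 motifs, with 64.4% GC and 8 CpG dinucleotides. The *MYO10* stretch held 8 GC boxes, with 78.8% GC and 30 CpG dinucleotides. The *MYH9* stretch held 5 GC boxes, 1 CCAAT box and 1 TEAD site, with 70.0% GC and 15 CpG dinucleotides. Among 35116 RefSeq promoter windows of 250 bases, 42.6% held a GC box, 32% a CCAAT box, 10.7% a TATA box, 11.9% a TEAD site, 6.57% an AP-1 site, 6.34% an E-box and 1.16% a CArG box, and the median window had 58.0% GC and 11 CpG dinucleotides. The *MYO1G* and *MYH9* stretches are shorter than these windows, and over its full 250 bases the *MYO1G* window held 2 GC boxes. A match describes letters and is not a binding site.

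The genes around *MYO1G* were compared to see whether the difference was shared along the chromosome. The nearest tested gene on the side of higher coordinates, *SNHG15*, lay 3.93 kb away with a log2 fold change of 0.06 (edgeR adjusted p = 0.417), and the nearest on the other side, *PURB*, lay 77.1 kb away with 0.45 (edgeR adjusted p = 1.06e-05, under 1.5-fold). Within 1000 kb of *MYO1G*, 27 other genes were tested, with a median log2 fold change of -0.12. Of these, 1 was called higher, *IGFBP1* at 0.95, and 1 lower, *IGFBP3* at -1.34, a neighbouring pair of insulin-like growth factor binding proteins.

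**Figure D2:**
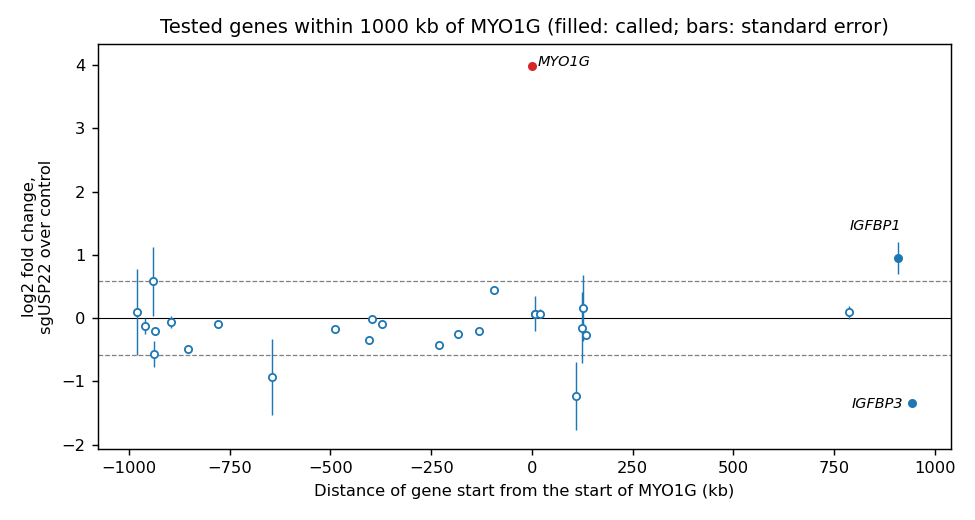
Log2 fold change of sgUSP22 over control with its standard error (y axis) of the tested genes within 1000 kb of *MYO1G*, against the distance of each gene's start from that of *MYO1G* in kb (x axis), with filled points for called genes and dashed lines at 1.5-fold. *MYO1G* at 3.99 stands alone above the 27 other genes, whose values run from -1.34 to 0.95.

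Since *MYO1G* is typical of blood cells, 14 blood cell marker genes were examined beside it. Of these, 6 were at 0 in every library, *LCP1*, *LYZ* and *CD3E* among them, and *PTPRC*, the gene of the pan-leukocyte antigen CD45, had 4 counts in sgUSP22 replicate 1 and 0 in the others. The summed level of the 14 genes was 1.31 and 2.15 CPM in control and 1.78 and 1.43 CPM in sgUSP22 libraries, which overlapped. The 3 that passed the filter, *CORO1A*, *ITGB2* and *LAPTM5*, had log2 fold changes of 0.24, -0.31 and -0.08 (edgeR adjusted p = 0.799, 0.513 and 0.918). *MYO1F*, the other class I myosin typical of leukocytes, had 0 and 24 counts in control and 32 and 27 counts in sgUSP22 libraries, a log2 fold change of 1.22 (SE 0.98, edgeR adjusted p = 0.33). Control replicate 2 lay close to the sgUSP22 libraries, and control replicate 1 was at 0. Without control replicate 2 *MYO1F* was called higher at 7.86 (edgeR adjusted p = 0.00187), a value that rests on the remaining control library being at 0 and is no bound.

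Class I myosins are single-headed motors that tether membranes to actin. *MYO1C*, which serves membrane tension and vesicle exocytosis, had 28135 and 30159 counts in control and 26202 and 24812 counts in sgUSP22 libraries. Its groups did not overlap, and the log2 fold change of -0.27 (SE 0.037, edgeR adjusted p = 0.000183) was under 1.5-fold. *MYO1E*, a long-tailed class I myosin of endocytosis, had 21988 and 23547 counts in control and 24558 and 23625 counts in sgUSP22 libraries, a log2 fold change of 0.00 (SE 0.036, edgeR adjusted p = 0.948), and its groups overlapped. After correction for GC content and length it passed the adjusted p at -0.13 (adjusted p = 0.0114). *MYO1D*, at 4 to 18 counts, had a log2 fold change of -0.89 (SE 0.78, edgeR adjusted p = 0.375). *MYO1A*, the brush border myosin, at 4 to 5 counts, and *MYO1H*, at 0, did not pass the filter.

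With *MYO1G*, the make-up of the class I transcripts *MYO1C*, *MYO1E* and *MYO1G* differed between the groups. On the scale of CPM per kilobase of transcript, *MYO1G* held 3.3% and 2.85% of the summed level of these 3 genes in control and 36.0% and 36.7% in sgUSP22 libraries. Over the same libraries the share of *MYO1C* was 66.9% and 67.2% in control and 41.7% and 41.0% in sgUSP22 libraries. The summed level was 139.9 and 145.9 CPM per kilobase in control and 194.0 and 190.0 in sgUSP22 libraries. Among the 30 tested myosin genes, *MYO1G* ranked 17 by mean level per kilobase in control and 6 in sgUSP22 libraries, where only *MYL6*, *MYL12A*, *MYL12B*, *MYH9* and *MYO1C* were above it.

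**Figure D3:**
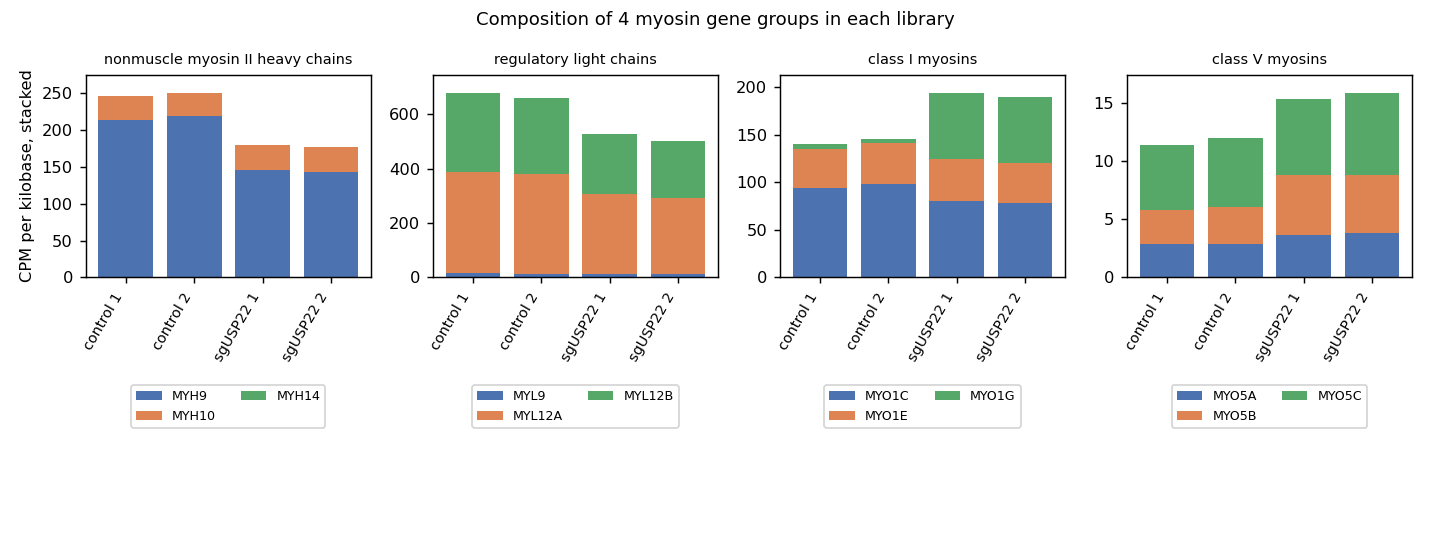
Levels in CPM per kilobase of transcript (y axis), stacked by gene, in each of the 4 libraries (x axis) for nonmuscle myosin II heavy chains, regulatory light chains, 3 class I myosins and class V myosins. *MYO1G* grows from 3.3% and 2.85% of the class I stack in control to 36.0% and 36.7% in sgUSP22 libraries, while the myosin II heavy chain and regulatory light chain stacks are lower in both sgUSP22 libraries.

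The nonmuscle heavy chain *MYH9* was the most abundant myosin heavy chain per kilobase in both groups. *MYH9*, the heavy chain of myosin IIA, the main contractile motor of cell cortex and stress fibres, had 96919 and 101449 counts in control and 70890 and 68857 counts in sgUSP22 libraries. Both sgUSP22 libraries were below both control libraries, at 1607.9 ± 25.9 CPM in control and 1072.8 ± 8.58 CPM in sgUSP22 (SD, n = 2 each). The log2 fold change was -0.584 (SE 0.028, edgeR quasi-likelihood test, adjusted p = 2.8e-07), just short of the 0.585 that 1.5-fold requires, so *MYH9* was not called. It was called lower at -0.60 when control replicate 1 or sgUSP22 replicate 1 was left out, and at -0.59 with RLE factors or a filter on a mean of at least 50 counts. *MYH9* alone made up 32.2% and 32.5% of the summed CPM of all myosin genes in control and 25.7% and 25.9% in sgUSP22 libraries.

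*MYH10*, the heavy chain of myosin IIB, which keeps tension longer than IIA, had 15163 and 15256 counts in control and 17045 and 16560 counts in sgUSP22 libraries. After scaling, its level was 246.6 ± 2.92 CPM and 258.0 ± 2.02 CPM (SD, n = 2 each), a log2 fold change of 0.06 (SE 0.034, edgeR adjusted p = 0.138), which turned to -0.03 after correction for GC content and length and passed the test at 0.12 when scaled by library size alone (edgeR adjusted p = 0.0137). The balance between the heavy chains therefore differed: on the per-kilobase scale, *MYH10* held 13.1% and 12.7% of the summed *MYH9*, *MYH10* and *MYH14* level in control and 18.9% and 18.8% in sgUSP22 libraries. *MYH9* stood at 213 and 218 CPM per kilobase in control and 145 and 143 in sgUSP22 libraries, and *MYH10* at 32.3 and 31.7 against 33.7 and 33.3.

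*MYH14*, the heavy chain of myosin IIC, found mainly in epithelia, was called higher from very low counts, 8 and 0 in control and 40 and 63 in sgUSP22 libraries. It passed the filter only through the sgUSP22 libraries, so it had to differ to be tested at all. The log2 fold change was 3.57 (SE 0.87, edgeR adjusted p = 0.00617), it ran from 2.58 without control replicate 2 to 8.67 without control replicate 1, and without the filter on low counts the adjusted p was 0.0514. Even in sgUSP22 libraries *MYH14* held 0.0493% and 0.0799% of the nonmuscle heavy chain level per kilobase. Its nearest tested neighbours on chromosome 19 were also called higher on the log2 fold change scale. These were *NR1H2*, the oxysterol receptor LXR beta, 19.1 kb away at 1.13, and *ZNF473*, 135 kb away at 0.90. Beside *MYL5* and *MYH9*, which were lower, *PCGF3* and *APOL1* were called higher at 0.67 and 1.33. No nearest tested neighbour of *MYO16*, *MYO15B*, *MYO5B* or *MYH3* was called. *MYH11*, the smooth muscle heavy chain, had 14 to 26 counts, and its log2 fold change of -0.27 (SE 0.59, edgeR adjusted p = 0.73) turned to 0.26 without control replicate 1. It shares 477 exonic bases with *NDE1* on the opposite strand, and the strand setting of the counting is not given in the sources used here.

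Of 11 genes classed as sarcomeric heavy chains, the motors of heart and skeletal muscle, *MYH3* alone passed the filter. Among the 11, *MYH16* is annotated as a transcribed pseudogene. *MYH3*, the embryonic skeletal muscle heavy chain, had 109 and 113 counts in control and 74 and 41 counts in sgUSP22 libraries, a log2 fold change of -1.03 (SE 0.32, edgeR adjusted p = 0.0208). Both sgUSP22 libraries were lower, replicate 2 the more so, and without that replicate the value was -0.68 (edgeR adjusted p = 0.124). DESeq2 did not call it either (adjusted p = 0.0643). The other 10 had at most 23 counts in any library, reached by *MYH7B*, and 7 of them, the adult skeletal and cardiac chains *MYH1*, *MYH2*, *MYH4*, *MYH6* and *MYH7*, the perinatal chain *MYH8* and the extraocular muscle chain *MYH13*, were at 0 throughout.

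Every tested light chain lay lower in the sgUSP22 libraries, with no overlap between the groups for any of the 6, although *MYL6* was at 0.06 once GC content and length were corrected for. Among all tested genes, 37.6% lay lower without overlap. Of the 6, *MYL5* was called, and the other 5 passed the adjusted p alone. Among all tested genes, 25.8% were lower by adjusted p alone. *MYL12A* and *MYL12B*, neighbouring genes on chromosome 18 that encode the widely expressed regulatory light chains of nonmuscle myosin II, had near-equal differences. *MYL12A* had 21700 and 21909 counts in control and 18486 and 17418 counts in sgUSP22 libraries, a log2 fold change of -0.36 (SE 0.036, edgeR adjusted p = 2.3e-05). *MYL12B* had 20698 and 20293 counts in control and 16892 and 15617 counts in sgUSP22 libraries, a log2 fold change of -0.41 (SE 0.041, edgeR adjusted p = 2.27e-05). Their coding sequences are 95.7% identical, so the counting could have split reads between them and the individual values are uncertain.

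*MYL9*, the regulatory light chain of smooth muscle and contractile cells, had 2599 and 2518 counts in control and 2159 and 2080 counts in sgUSP22 libraries, a log2 fold change of -0.35 (SE 0.060, edgeR adjusted p = 0.000763). On the per-kilobase scale the summed level of *MYL9*, *MYL12A* and *MYL12B* was 678.7 and 660.8 CPM per kilobase in control and 526.5 and 501.3 in sgUSP22 libraries. The make-up of that sum differed little, with *MYL12A* at 54.7% and 55.5% in control and 55.8% and 56.2% in sgUSP22 libraries, and *MYL9* at 2.25% and 2.19% against 2.24% and 2.31%. The heavy chains thus differed in balance between *MYH9* and *MYH10*. Among the regulatory chains *MYL9* kept about the same share, overlapping between the groups, while the shares of *MYL12A* and *MYL12B* differed slightly without overlap. *MYL12B* held 43% and 42.3% in control and 42% and 41.5% in sgUSP22 libraries.

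*MYL5*, a low-abundance regulatory light chain, had 127 and 123 counts in control and 72 and 55 counts in sgUSP22 libraries, a log2 fold change of -1.06 (SE 0.26, edgeR adjusted p = 0.00678). Its exons share 136 bases with *SLC49A3* on the opposite strand, and reads of the overlap could not be told apart if strand was not used. *MYL6*, the essential light chain of nonmuscle and smooth muscle myosin, ranked first of the 30 genes per kilobase in both groups. It had 20404 and 20923 counts in control and 20563 and 19450 counts in sgUSP22 libraries, a log2 fold change of -0.13 (SE 0.035, edgeR adjusted p = 0.0123) that turned to 0.06 after correction for GC content and length (adjusted p = 0.144). *MYL6B*, an essential light chain of slow muscle and nonmuscle cells, had 2694 and 2568 counts in control and 2216 and 2050 counts in sgUSP22 libraries, a log2 fold change of -0.38 (SE 0.064, edgeR adjusted p = 0.000669). After the same correction it was -0.15 (adjusted p = 0.0605). The remaining light chains, the striated muscle chains *MYL1*, *MYL2*, *MYL3*, *MYL4* and *MYL7* and the lymphocyte-associated *MYL10*, were at 0 in every library.

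**Figure D4:**
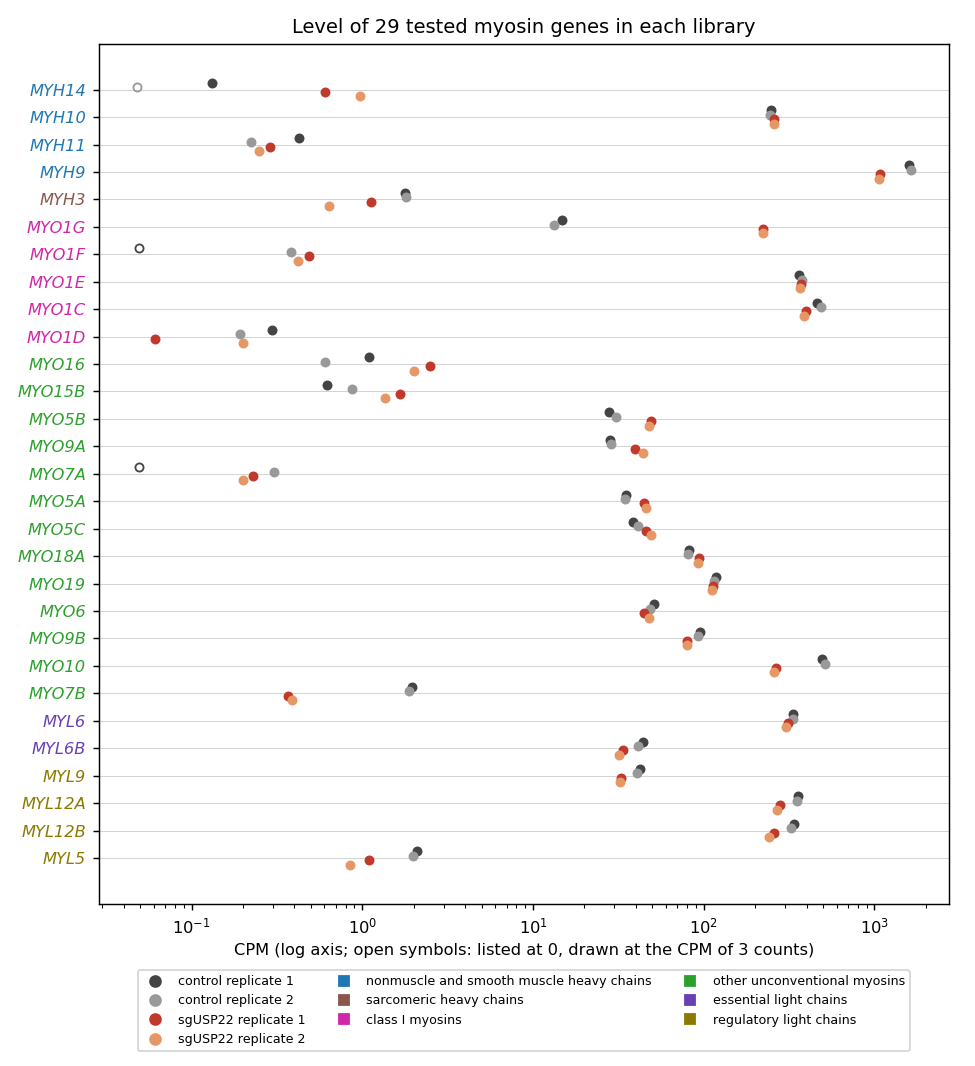
Level in CPM on a log axis (x axis) of 29 of the 30 tested myosin genes (y axis, names coloured by class) in each of the 4 libraries (points, grey for control and red or orange for sgUSP22, open where a library is listed at 0 and drawn at the CPM of 3 counts). *MYO1G* moves from 14.7 and 13.3 CPM in control to 222.9 and 222.1 CPM in sgUSP22 libraries, while *MYH9* stays the highest at 1066.7 to 1626.2 CPM.

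Among the other unconventional myosins, *MYO10* was the abundant gene that fell. *MYO10* carries cargo to the tips of filopodia, thin actin protrusions, and binds integrins and phosphoinositides. It had 29887 and 31827 counts in control and 17325 and 16749 counts in sgUSP22 libraries, with both sgUSP22 libraries far below both control libraries. The level was 500.2 ± 14.2 CPM and 261.6 ± 2.96 CPM (SD, n = 2 each), a log2 fold change of -0.94 (SE 0.035, edgeR quasi-likelihood test, adjusted p = 5.47e-08). The value ran from -0.96 to -0.91 with any 1 library left out and was -1.07 after correction for GC content and length. By mean level per kilobase *MYO10* ranked 7 among the 30 genes in control and 12 in sgUSP22 libraries. Its nearest tested neighbours on chromosome 5 differed from it, with *BASP1* at 0.00 and *RETREG1* called higher at 0.60 on the log2 fold change scale.

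*MYO7B*, a myosin of the brush border, where it anchors the links between microvilli, fell by 2.35 on the log2 scale (SE 0.30, edgeR adjusted p = 0.000128). It had 119 and 118 counts in control and 24 and 25 counts in sgUSP22 libraries, so replicates were near-identical and the groups were well apart. The neighbouring gene *LIMS2*, which encodes a focal adhesion adaptor, was also called lower at -0.74. The gap between the annotated ends of the 2 genes is 0.652 kb. On the other side, *IWS1* had a log2 fold change of 0.05 (edgeR adjusted p = 0.364). *MYO7A*, the inner ear relative, had 0 and 19 counts in control and 15 and 13 counts in sgUSP22 libraries, a log2 fold change of 0.48 (SE 1.07, edgeR adjusted p = 0.737). It turned to -0.50 without control replicate 1 and was called at 6.79 without control replicate 2 (edgeR adjusted p = 0.0252), when the remaining control library was at 0.

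The class V myosins, which carry recycling endosomes and secretory vesicles, all lay higher in the sgUSP22 libraries without overlap. Among all tested genes, 38.3% lay higher without overlap. *MYO5B*, the partner of *RAB11A* in delivery to the apical membrane, had 1695 and 1921 counts in control and 3214 and 3104 counts in sgUSP22 libraries. Its log2 fold change was 0.73 (SE 0.064, edgeR adjusted p = 1.08e-05), and it was 0.57, below the threshold of 1.5-fold, after correction for GC content and length. *MYO5A* and *MYO5C* did not reach 1.5-fold, with log2 fold changes of 0.38 (SE 0.055, edgeR adjusted p = 0.000246) and 0.24 (SE 0.060, edgeR adjusted p = 0.0069). After the same correction they were 0.14 and 0.10, and *MYO5C* no longer passed (adjusted p = 0.179). *MYO5C* also shares 410 exonic bases with *CERNA1* and *MYO5B* shares 43 with *SNHG22*, both on the opposite strand. On the per-kilobase scale the summed class V level was 11.3 and 12.0 CPM per kilobase in control and 15.3 and 15.8 in sgUSP22 libraries, in which *MYO5B* held 25.6% and 26.8% in control and 33.3% and 31.7% in sgUSP22 libraries.

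A pair of rare unconventional myosins was called higher. *MYO16*, a neuronal myosin, had 67 and 38 counts in control and 164 and 130 counts in sgUSP22 libraries, a log2 fold change of 1.40 (SE 0.32, edgeR adjusted p = 0.0041) that ran from 1.04 to 1.89 with 1 library left out. *MYO15B*, whose human gene has long been annotated as a pseudogene, is protein coding in the annotation used here. It had 38 and 54 counts in control and 110 and 87 counts in sgUSP22 libraries. Its log2 fold change was 1.02 (SE 0.31, edgeR adjusted p = 0.0198). Its call was lost without control replicate 1 (0.80, edgeR adjusted p = 0.0927), without sgUSP22 replicate 1 (0.84, edgeR adjusted p = 0.127) and with DESeq2 (adjusted p = 0.0832).

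The class IX myosins, motors that carry a GTPase-activating domain, differed in opposite directions. *MYO9A* had 1713 and 1798 counts in control and 2596 and 2831 counts in sgUSP22 libraries, a log2 fold change of 0.55 (SE 0.069, edgeR adjusted p = 0.000102). This was under 1.5-fold, and it was called at 0.61 without sgUSP22 replicate 1 and at 0.60 when scaled by library size alone. It was 0.47 without sgUSP22 replicate 2 and 0.30 after correction for GC content and length (adjusted p = 0.00246). *MYO9B* had 5781 and 5784 counts in control and 5239 and 5142 counts in sgUSP22 libraries, a log2 fold change of -0.23 (SE 0.041, edgeR adjusted p = 0.00086). *MYO18A*, a myosin that binds the Golgi, had a log2 fold change of 0.19 (SE 0.040, edgeR adjusted p = 0.0024). *MYO19*, the mitochondrial myosin, and *MYO6*, the motor that moves towards the minus end of actin, had log2 fold changes of -0.06 (SE 0.038, edgeR adjusted p = 0.239) and -0.09 (SE 0.057, edgeR adjusted p = 0.206). After correction for GC content and length *MYO19* was at 0.02 and *MYO6* at -0.39 (adjusted p = 0.000217). *MYO15A*, at 0 to 10 counts, and *MYO3A*, *MYO3B* and *MYO18B*, at 0, did not pass the filter.

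The genes that switch or serve the myosins were examined next, as 66 companion genes listed by role, of which 60 were tested. Of these 4 were called higher and 6 lower, beside 8.88% and 7.25% of all tested genes, and by adjusted p alone 19 were higher and 22 lower, beside 26.8% and 25.8%. The median log2 fold change of the 60 was -0.075. The largest list, of light chain kinases, phosphatase subunits and small GTPases, had 26 of 29 genes tested, of which 4 were called higher and 4 lower, beside 16.1% of all tested genes called in either direction, and the lists were not tested against each other. Among the 13 tested calmodulins, chaperones and filament regulators, *TPM1*, a tropomyosin that shields actin, was the 1 gene called, at -0.61. Among the 21 tested cargo adaptors and anchors, *WHRN*, a scaffold of stereocilia, was the 1 gene called, at -0.62. *TPM1* and *WHRN* lost the call when scaled by library size alone and after correction for GC content and length, and *WHRN* also at -0.55 without sgUSP22 replicate 1.

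The 3 tested dedicated light chain kinases fell. *MYLK3*, known as the cardiac myosin light chain kinase, had 1393 and 1460 counts in control and 385 and 376 counts in sgUSP22 libraries, a log2 fold change of -1.98 (SE 0.093, edgeR adjusted p = 2.25e-07). *MYLK*, the smooth muscle and nonmuscle kinase, had 313 and 323 counts in control and 135 and 200 counts in sgUSP22 libraries, a 2-fold fall (SE 0.21 on the log2 scale, edgeR adjusted p = 0.00235). In both genes each sgUSP22 library was below each control library. *MYLK4*, of the same family, had 38 and 61 counts in control and 17 and 23 counts in sgUSP22 libraries, a log2 fold change of -1.38 (SE 0.46, edgeR adjusted p = 0.0289). That call was lost with DESeq2 (adjusted p = 0.106), without control replicate 2 (-1.02, edgeR adjusted p = 0.203) and without sgUSP22 replicate 1 (-1.18, edgeR adjusted p = 0.115). *RND1*, an atypical small GTPase that opposes contraction, had 76 and 68 counts in control and 32 and 19 counts in sgUSP22 libraries, a log2 fold change of -1.57 (SE 0.39, edgeR adjusted p = 0.00698).

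Other kinases and a phosphatase subunit rose. *DAPK1*, a calmodulin-regulated death-associated kinase, had 1438 and 1423 counts in control and 4214 and 4078 counts in sgUSP22 libraries, a log2 fold change of 1.46 (SE 0.054, edgeR adjusted p = 5.47e-08). *CDC42BPG*, a CDC42-binding kinase, had 82 and 112 counts in control and 331 and 257 counts in sgUSP22 libraries, a log2 fold change of 1.52 (SE 0.22, edgeR adjusted p = 0.000237). In both genes the sgUSP22 libraries were the higher ones without overlap. *PPP1R12B*, a targeting subunit of myosin phosphatase, and *STK17A*, a kinase of the DAPK family, were called at 0.70 (edgeR adjusted p = 1.09e-05) and 0.59 (edgeR adjusted p = 3.51e-06), and after correction for GC content and length both were under 1.5-fold at 0.53 and 0.42. *STK17A* was also under 1.5-fold without control replicate 1, at 0.56, and without sgUSP22 replicate 1, at 0.54.

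*ROCK1* and *ROCK2*, the kinases that phosphorylate the light chain and inhibit its phosphatase, did not reach 1.5-fold. *ROCK1* had 6661 and 6784 counts in control and 10325 and 10130 counts in sgUSP22 libraries, a log2 fold change of 0.53 (SE 0.037, edgeR adjusted p = 2.32e-06). *ROCK2* had 9690 and 9695 counts in control and 14617 and 15116 counts in sgUSP22 libraries, a log2 fold change of 0.54 (SE 0.039, edgeR adjusted p = 3.09e-06). Both were higher without overlap, and after correction for GC content and length they were 0.26 and 0.28. *PPP1R12A*, the main targeting subunit of myosin phosphatase, had a log2 fold change of -0.21 (SE 0.039, edgeR adjusted p = 0.00135). The small GTPases that activate ROCK, named after their values were seen, lay the other way, with *RHOA* at -0.44, *RHOB* at -0.48 and *RHOC* at -0.58, all under 1.5-fold. *RHOC* passed 1.5-fold at -0.62 without control replicate 1 and at -0.59 without sgUSP22 replicate 1, and after correction for GC content and length the values were -0.43, -0.34 and -0.36.

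**Figure D5:**
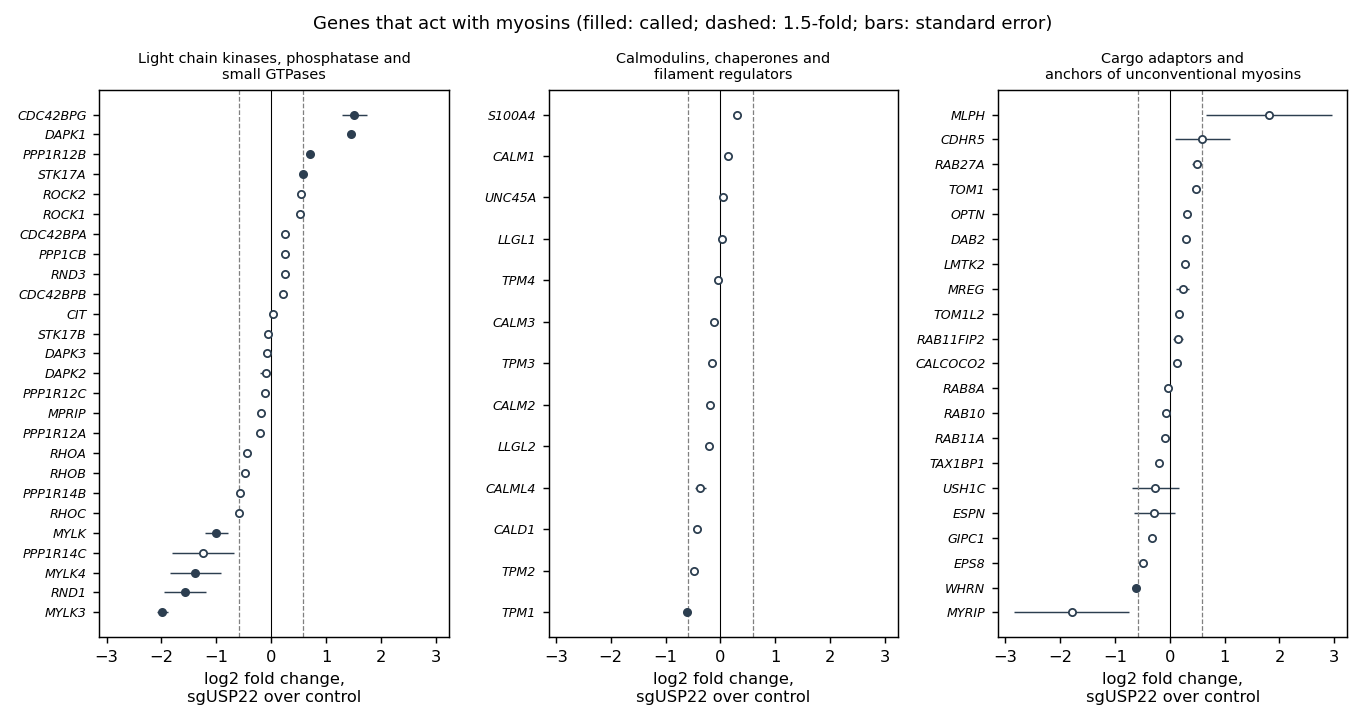
Log2 fold change of sgUSP22 over control with its standard error (x axis) for the tested companion genes, in 3 panels by role, with filled points for called genes and dashed lines at 1.5-fold. The light chain kinase, phosphatase and small GTPase panel holds 8 of the 10 called genes, from *MYLK3* at -1.98 to *CDC42BPG* at 1.52.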

How the data were processed

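The authors mapped reads with HISAT2 2.2.1 on hg38 and deposited whole-number gene counts made with StringTie 2.2.1, unscaled for library size. DESeq2 1.34.0 is also named in the submitters' processing notes. The annotation, strand setting and read length are not given in the sources used here. Each of the 4 count columns was assigned to its group and replicate by name, and 0 columns were left unassigned.

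The counts of all genes were fitted in R 4.3.3 with edgeR 4.0.16 (glmQLFit and glmQLFTest with TMM factors, after filterByExpr on the groups, minimum count 10), and p-values were adjusted by the Benjamini-Hochberg method over the 15150 tested genes. A call required a change of 1.5-fold or more and an adjusted p below 0.05. Standard errors were derived as |log2 fold change| / √F. The procedure was checked on simulated data of 15150 genes, 200 of them changed. There edgeR recovered 95% of the smaller and 98% of the larger changes and made 20 false calls. The changed genes were drawn only from above a limit on mean CPM, and fewer were changed than were called in the data. Recovery of rarer genes, such as *MYH14*, was therefore not measured. Totals ranged from 62030307 to 64728272 counts, and low counts carry the largest error. Between replicates the mean chi-square per gene was 7.86 in control and 8.25 in sgUSP22, above sampling noise.

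Of the 28278 symbols, 25763 were matched to GENCODE annotation of hg38, whose canonical transcripts gave positions, lengths and GC content. Promoter sequences came from RefSeq (GRCh38.p14), in which 25 of the 30 tested myosin genes were matched. The values of 1 tested myosin gene are not reported here, though it is kept in the counts over all 30 and in the summed level. The myosin genes, the companion and marker lists and the tests were chosen with earlier results of these data known. Named in full are all called myosin genes, *MYH9*, *MYH10*, *MYH14*, *MYL6*, *MYL9*, *MYL12A* and *MYL12B*, the 4 largest calls in each direction among companion genes, and *ROCK1*, *ROCK2*, *MYLK* and *PPP1R12A*. Alternatives were DESeq2 1.42.0, the replicate number as a block, scaling with RLE factors or with library size alone, omitting the filter or requiring a mean of 50 counts, omitting the fold change threshold or testing against 1.5-fold, a lowess correction for GC content and length (span 0.3), and leaving out each library, with the lone library assumed to vary like the others.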

Additional observations from a re-analysis of the deposited data

How the results depend on the processing

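Without the fold change threshold 9 myosin genes were called higher and 12 lower, and a test against 1.5-fold called 2 and 2, in place of 5 and 4. The companion genes gave 19 and 22 without the threshold and 2 and 1 against 1.5-fold, in place of 4 and 6. With 1 library left out, 4 to 7 myosin genes were called higher and 3 to 5 lower, and 3 to 4 companion genes higher and 5 to 9 lower, the 9 without control replicate 1. As shares of raw counts rather than per kilobase, *MYL9*'s share of the regulatory light chains differed by 0.13 percentage points in place of 0.05, and by 0.02 to 0.08 with 1 library left out, 0.02 without replicate 2 of either group and 0.08 without replicate 1 of either. Same-numbered libraries did not deviate together (correlation 0.042), so the numbers were not taken as pairs, and with the replicate number as a block 5 and 4 myosin genes were called. Signs turned for *MYL6* (0.06), *MYH10* (-0.03), *MYO19* (0.02) and *MYO1E* (-0.13) after the GC and length correction, for *MYO1E* with RLE factors (-0.0003), with a mean of at least 50 counts (-0.0011), and without control replicate 1 (-0.03) or sgUSP22 replicate 1 (-0.02), and for *MYH11* (0.26) and *MYO7A* (-0.50) without control replicate 1. Over the libraries left out, *MYO1E* ran from -0.03 to 0.04, *MYH11* from -0.66 to 0.26 and *MYO7A* from -0.50 to 6.79. None of these but *MYL6* had passed the test, *MYO1E* passed it after the GC and length correction (edgeR adjusted p = 0.0114), and the cause was not tested. Of 227 comparisons of 29 tested myosin genes with another setting, 195 kept the sign and the verdict by adjusted p alone. Another 24 no longer passed the adjusted p, 2 newly passed it and 6 turned sign. The settings include the stricter test against 1.5-fold. Gains or losses of a call through the 1.5-fold threshold are not part of these counts. With 2 libraries per group, genes of few counts, such as *MYH14*, *MYH3*, *MYO15B* and *MYO1F*, are the least certain.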

Other observations

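Genes of smooth muscle and striated muscle that work beside myosin were read from marker lists. Of 7 smooth muscle genes, 5 were tested and 2 were called lower in the sgUSP22 libraries, beside 7.25% of all tested genes. *TAGLN*, the actin-binding protein transgelin, had 797 and 636 counts in control and 256 and 147 counts in sgUSP22 libraries, a log2 fold change of -1.91 (SE 0.23, edgeR quasi-likelihood test with Benjamini-Hochberg adjustment, adjusted p = 7.5e-05). *ACTA2*, smooth muscle actin, had 739 and 783 counts in control and 465 and 393 counts in sgUSP22 libraries, a log2 fold change of -0.91 (SE 0.12, edgeR adjusted p = 0.000133). The other 3 tested, *SMTN*, *DES* and *MYOCD*, had log2 fold changes of -0.25, 0.41 and 0.65 (edgeR adjusted p = 0.00191, 0.307 and 0.25), *DES* and *MYOCD* being higher in both sgUSP22 libraries. *CNN1*, a defining smooth muscle gene, was at 0 in every library. The summed level of the 7 genes was 84.2 and 82.9 CPM in control and 62.8 and 58.4 CPM in sgUSP22 libraries. Of 14 striated muscle genes, 6 were tested and *ACTC1*, cardiac actin, was called lower, with 187 and 226 counts in control and 116 and 119 counts in sgUSP22 libraries and a log2 fold change of -0.89 (SE 0.20, edgeR adjusted p = 0.00369). The list's median was 0.371, with *TTN*, *DES*, *TNNT2* and *NEB* at 0.41, 0.41, 0.39 and 0.35, of which *TTN* passed the adjusted p alone (edgeR adjusted p = 0.0163), and *TNNT1* at -0.21 (edgeR adjusted p = 0.0791). The myogenic regulators *MYOD1* and *MYOG* were at 0 in every library.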
